A study of Drosophila melanogaster x Drosophila sechellia and Drosophila melanogaster and Drosophila sechellia with 12 samples.

Results

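Editing in F1 hybrids was described at 850 of the 1058 adenosine sites measured in heads of Drosophila melanogaster, Drosophila sechellia and the cross between them. A site was taken where each of the 7 F1 and parental libraries held at least 50 reads and where the pooled level was under 95% in both species. Of 889 sites with that coverage, 39 reached 95% in a parent and were left out. The highest levels inside the border were 94.8%, 94.4% and 94.3%, and the nearest outside were 95.3%, 95.3% and 95.9%. The lowest read number inside was 51 and the nearest outside was 48. The members lay in 256 clusters of sites less than 1000 bases apart, and chromosome arms held 139 (2L), 192 (2R), 130 (3L), 215 (3R), 13 (4) and 161 (X) of them.

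The study amplified known editing loci from head cDNA and sequenced the products (mmPCR-seq, multiplex PCR with sequencing). All flies were adult females aged 0 to 2 days. The groups used were F1 hybrids of D. melanogaster and D. sechellia (3 libraries), a mixture of both parent species that served as a control (2 libraries), D. sechellia (2 libraries) and D. melanogaster (2 libraries). A further group of hybrids, mutant for the D. melanogaster Adar gene, was not compared here, but its libraries entered the estimate of spread in the site tests. The labels do not name the stocks, the direction of the cross, the way in which the mixture was made or whether replicates came from separate flies.

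Adar, the Drosophila enzyme of A-to-I RNA editing, deaminates adenosines in double-stranded stretches of RNA. Inosine is read as guanosine, so an edited site appears as G where the gene has A, and the editing level is the share of G among A and G reads. Which sites are edited depends on the RNA fold around them and on the Adar protein present, and in flies many known sites lie in transcripts of ion channels and synaptic proteins. A hybrid carries transcripts of both species in one cellular environment, whereas a mixture of parents carries the same transcripts edited in the parents' own cells.

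Each F1 level counted reads of both alleles, and each parental level counted reads of its own species. Total reads in the 9 libraries ranged from 251870 to 375599, and the median member site had 235 to 341.5 reads. The D. melanogaster sequence took 65.4% to 65.8% of F1 reads and 62.9% to 63.2% of mixed-parent reads, so both alleles were present in every library of these groups. In the parental libraries 1.29% and 3.76% of D. sechellia reads and 2.08% and 2.1% of D. melanogaster reads stood on the other species' sequence. These counts come from PCR reads without molecular identifiers, so a site's reads are not independent molecules. In whole heads, a change of the level within cells and a change in which cells carry the transcript cannot be told apart.

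Averaged over all members, the editing level of F1 heads did not separate from that of either parent. The mean level was 15.9%, 14.8% and 15.2% in the F1 libraries, 14.5% and 15.4% in the mixed parents, 13.9% and 15.1% in D. sechellia, and 15.7% and 15.7% in D. melanogaster. The F1 libraries overlapped the range of every other group. Group means were 15.3% ± 0.527 in F1 (SD, n = 3), 15.0% ± 0.668 in the mixed parents (SD, n = 2), 14.5% ± 0.870 in D. sechellia (SD, n = 2) and 15.7% ± 0.0167 in D. melanogaster (SD, n = 2). The F1 mean was 0.829 percentage points above D. sechellia and 0.415 points below D. melanogaster (a difference of -0.415), each with an exact two-sided permutation p of 0.4. Against the mixed parents the F1 mean differed by 0.337 points (exact permutation p = 0.5). Adjusted over these 3 comparisons each exact permutation p was 0.5, and with 3 libraries against 2 no p under 0.1 can be reached. The mean of the parental means was 15.1%, from which the F1 mean differed by 0.207 points (SE 0.433).

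Site by site, most F1 levels lay close to the parental levels and to the levels between them. Much of this closeness comes with low levels and like parents. The median member level was 5.36%, 5.16% and 5.28% in the F1 libraries, and 713 of the 850 members did not meet the rule for diverged sites given below. Because most F1 reads stood on the D. melanogaster sequence at many sites, 2 mid-parent levels were used. In these shares, expression of the alleles and the way reads were given to a species cannot be told apart. The plain mid-parent is the mean of the parental levels, and the weighted mid-parent counts each parent by its allele's share of the F1 reads at that site. The median distance of the F1 level over the 850 sites was 0.904 percentage points to the weighted mid-parent, 0.986 to the plain mid-parent, 1.56 to D. sechellia and 1.43 to D. melanogaster. In the mixed parents, over 847 sites with coverage, these distances were 0.861, 1.01, 1.63 and 1.41 points. F1 levels lay within 5 points of the weighted mid-parent at 90.8% of sites, and mixed-parent levels at 90.2%. Across sites, Pearson's r of the F1 level with the weighted mid-parent was 0.985 and with the plain mid-parent 0.975, over points that share libraries and, within clusters, may share amplicons.

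Fewer sites departed from the weighted than from the plain mid-parent. In the quasi-binomial test (Benjamini-Hochberg adjusted p of at most 0.05), 69 of 722 tested members differed from the plain mid-parent, 44 higher and 25 lower, in 38 clusters. The share called over all sites of the table was 11.7%, with 7.1% higher and 4.6% lower. Against the weighted mid-parent 20 members differed, 17 higher and 3 lower, in 12 clusters, where 2.76% of all sites tested were called (2.37% higher and 0.394% lower). All 20 were also among the 69. Of those 69 sites, 43 had at least 75% or at most 25% of F1 reads on the D. melanogaster sequence, and 62 lay closer to the weighted than to the plain mid-parent. The count of 20 was 11 without D. melanogaster library 1, 11 without D. melanogaster library 2 and 12 without F1 library 1. The 128 members with a mean level under 1% were not tested; their highest F1 mean was 1.14%.

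**Figure D1:**
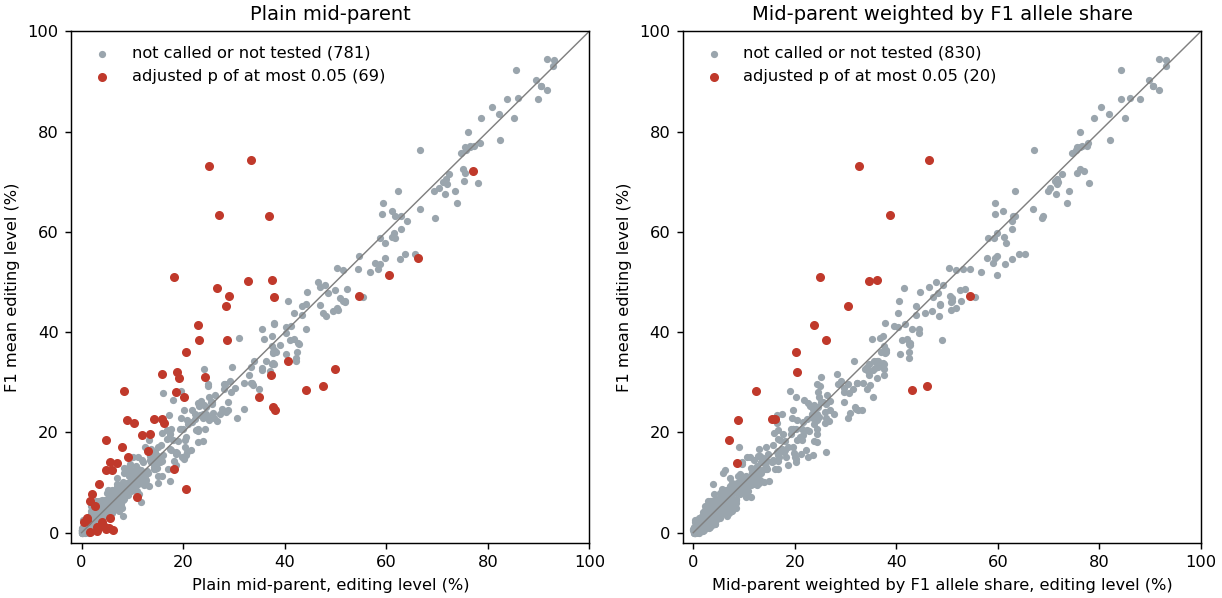
Mean editing level in the 3 F1 libraries (vertical axis, percent) against the plain mid-parent (left) and the mid-parent weighted by allele share (right), 1 dot for each of 850 sites. Red dots are the 69 sites (left) and 20 sites (right) past the adjusted threshold of the quasi-binomial test, the diagonal marks equal levels, and fewer dots are red, and more lie along the diagonal, in the right panel.

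The share of reads on each allele went along with the distance from the plain mid-parent. The part of read assignment in these shares was not tested. Of the 440 members with 40 to 60% of F1 reads on the D. melanogaster sequence, 374 were tested and 14 (3.74%) differed from the plain mid-parent. Among members with 60 to 90%, 23 of 175 (13.1%) did, and among the 168 members with more than 90%, 30 of 135 tested (22.2%) did. Of the calls in these last bins, 16 lay in 1 cluster of 19 neighbouring members on 2R, described below, with shares of 88.8% to 96.2%. The rise over the bins thus rests in part on sites that may share amplicons. Against the weighted mid-parent these 3 bins held 8, 8 and 4 calls. At 40% or less, 2 of 38 tested sites differed from the plain mid-parent.

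The parents themselves differed at many sites, which sets where inheritance can be read. D. sechellia and D. melanogaster differed at 292 of 731 members tested, with D. sechellia higher at 114 and lower at 178. The share called over all sites was 41.7%, with D. sechellia higher at 16.2% and lower at 25.5%. F1 differed from D. sechellia at 196 of 709 members (123 higher, 73 lower), where 29.8% of all sites were called, 18.6% higher and 11.2% lower. It differed from D. melanogaster at 126 of 717 (58 higher, 68 lower), where 19.4% of all sites were called, 8.86% higher and 10.6% lower. The last count was 66 without D. melanogaster library 1 and 80 without D. melanogaster library 2. Of 678 members tested against both parents, 54 lay between the parents and differed from each, 116 differed from D. sechellia only, 53 from D. melanogaster only and 440 from neither. A further 13 were above both parents and 2 below both. At the 54 sites between the parents, in 42 clusters, the median gap of the parents was 19.1 percentage points, D. melanogaster was the higher parent at 30, and 1 site also differed from the weighted mid-parent.

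The position between the parents was read at 137 sites, in 97 clusters, where the species differed by the test and by at least 10 percentage points (median gap 17.3, range 10 to 67.8 points). Position is 0 at the D. melanogaster level and 1 at the D. sechellia level. F1 had a median position of 0.435 (quartiles 0.213 and 0.617), and the mixed parents had 0.470 (quartiles 0.187 and 0.660). Near the mid-parent, at 0.25 to 0.75, were 75 sites in F1 (54.7%) and 72 in the mixed parents (52.6%). Near D. melanogaster were 25 sites in F1 and 21 in the mixed parents, and near D. sechellia were 15 and 12. Outside the parental means were 16 F1 sites on the D. melanogaster side and 6 on the D. sechellia side, with 19 and 13 in the mixed parents. The F1 and mixed-parent positions share the parental libraries, so no likeness between them is given beyond these counts.

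**Figure D2:**
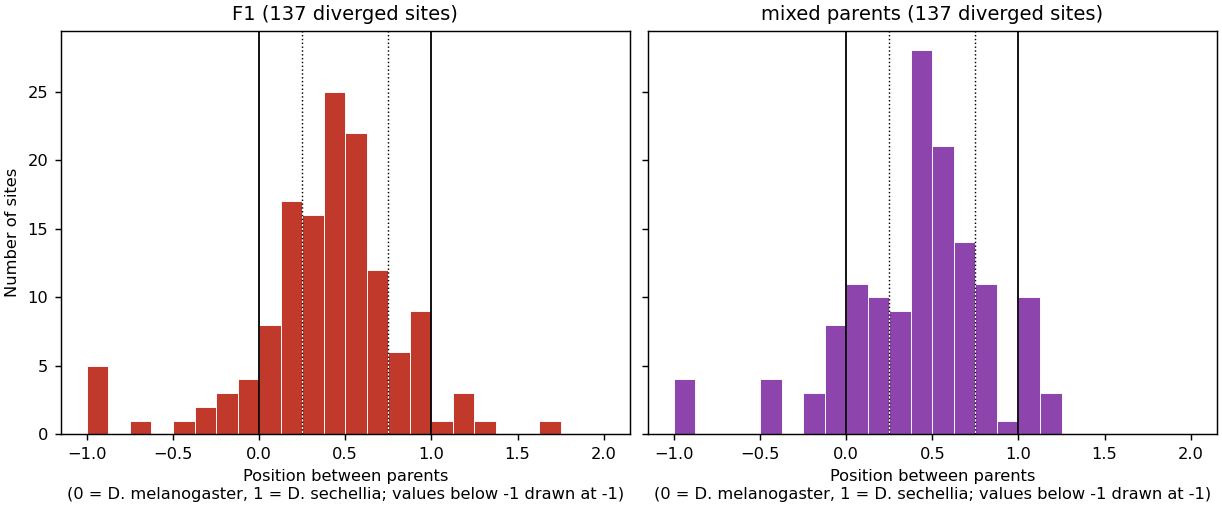
Number of diverged sites (vertical axis) by position between the parents (horizontal axis, 0 at D. melanogaster and 1 at D. sechellia) in F1 (left) and mixed parents (right), 137 sites in each panel. Solid lines mark the parental levels and dotted lines the borders at 0.25 and 0.75; values below -1 are drawn at -1, and both panels peak between the dotted lines.

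Of the 22 F1 sites outside the parental means by position, 7 were past both parents by the tests. The 22 lay 0.645 to 38.4 percentage points outside, with a median of 3.43 points. The F1 level was nearest to the plain mid-parent at 75 of the 137 sites, to D. melanogaster at 41 and to D. sechellia at 21. The weighted mid-parent was nearer than the plain one at 88 sites for F1 and at 84 for the mixed parents. It was nearer than the plain mid-parent and both parents at 58 sites for F1 and at 46 for the mixed parents. The median distance to the weighted mid-parent was 2.58 points in F1, against 3.78 to the plain one, 8.21 to D. melanogaster and 10.7 to D. sechellia.

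Sites near the mid-parent included some of the widest gaps between the species. At 3L 21327037 the level was 50.2%, 44.0% and 46.5% in F1, 37.9% and 41.5% in the mixed parents, 6.92% and 6.45% in D. sechellia, and 72.6% and 65.4% in D. melanogaster. Every F1 library lay between the parental groups and above the mixed parents, the D. melanogaster sequence held 65.1% of F1 reads, and the F1 mean of 46.9% ± 3.10 (SD, n = 3) stood beside a weighted mid-parent of 47.2%. The D. melanogaster allele in F1 was edited at 68.4% and the D. sechellia allele at 6.69%, near the level of each parent.

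At X 3847311 the gap ran the other way. Its level was 31.1%, 24.7% and 28.7% in F1, 24.6% and 25.7% in the mixed parents, 50.4% and 53.4% in D. sechellia, and 6.55% and 7.44% in D. melanogaster. F1 overlapped the mixed parents and neither parent, and the F1 mean of 28.2% ± 3.26 (SD, n = 3) lay at position 0.472. At 2L 3762337 the F1 libraries had 40.2%, 41.4% and 37.8%, the mixed parents 36.4% and 37.4%, D. sechellia 20.05% and 18.0%, and D. melanogaster 64.6% and 58.5%. There F1 lay above the mixed parents and between the parental groups, at position 0.511. At 2R 17508581, F1 averaged 24.1% ± 1.86 (SD, n = 3), the mixed parents 25.3%, D. sechellia 48.0% and D. melanogaster 8.93%. At this last site the D. melanogaster allele had 17.8% in F1 and 14.7% in the mixed parents, and the D. sechellia allele had 32.3% in F1 and 33.9% in the mixed parents, beside parental means of 8.93% and 48.0% for the own species.

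Of the 25 diverged sites near D. melanogaster, 12 had over 90% of F1 reads on the D. melanogaster sequence, 5 had 60 to 90%, 7 had 40 to 60% and 1 had 40% or less. The median share of F1 reads on the D. melanogaster sequence was 88.9% in this class and 95.1% among sites outside on the D. melanogaster side, against 55.7% near the mid-parent, 54.8% near D. sechellia and 46.2% outside on the D. sechellia side. At 3R 16846284 the level was 63.2%, 58.2% and 67.9% in F1, 63.6% and 74.7% in the mixed parents, 1.60% and 4.44% in D. sechellia, and 70.3% and 71.4% in D. melanogaster. F1 overlapped the mixed parents, all 3 libraries were below D. melanogaster, and 97.0% of F1 reads stood on the D. melanogaster sequence. F1 differed from the plain mid-parent there (adjusted p = 1.96e-06, quasi-binomial test) and missed the threshold against the weighted mid-parent (adjusted p = 0.439) and against D. melanogaster (adjusted p = 0.12).

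A wide gap with a less extreme share stood at X 1267594. There the level was 36.0%, 30.2% and 31.9% in F1, 31.9% and 35.0% in the mixed parents, 78.8% and 80.7% in D. sechellia, and 18.8% and 21.1% in D. melanogaster. F1 overlapped the mixed parents and lay between the parental groups, nearer D. melanogaster, with 70.5% of F1 reads on that sequence. The alleles were farther apart in F1 than the parents were: 10.7% for the D. melanogaster allele and 85.5% for that of D. sechellia, with 12.8% and 81.5% when measured in the mixed parents. At X 1272317 and X 1272312, 99.8% and 99.7% of F1 reads were D. melanogaster, while 29.0% and 28.3% of the reads of the D. sechellia libraries also stood on the D. melanogaster sequence, and the part of read assignment in these levels was not tested.

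Sites near D. sechellia were fewer. Those at 2L 6002057 and 2L 6002117 lay in 1 cluster in which the D. melanogaster sequence held only 29.3% and 29.2% of F1 reads. At 2L 6002057 the level was 29.5%, 23.2% and 22.8% in F1, 18.8% and 26.1% in the mixed parents, 18.2% and 28.7% in D. sechellia, and 54.7% and 49.1% in D. melanogaster. F1 overlapped the mixed parents and D. sechellia and lay wholly below D. melanogaster. F1 differed there from the plain mid-parent (adjusted p = 0.00996, quasi-binomial test), with an adjusted p of 0.288 against the weighted mid-parent.

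Other sites of this class had balanced reads. At 3R 1062054 the level was 93.0%, 90.8% and 92.8% in F1, 84.3% and 85% in the mixed parents, 95.7% and 92.8% in D. sechellia, and 76.4% and 77.2% in D. melanogaster. F1 lay above the mixed parents and D. melanogaster and overlapped D. sechellia. The D. melanogaster allele had 90.2% in F1 and 75.5% in the mixed parents. For F1 the adjusted p was 0.0716 against the weighted mid-parent and 0.42 against the mixed parents (quasi-binomial test). At 3R 3829208 F1 averaged 23.4% ± 4.11 (SD, n = 3), the mixed parents 15.3%, D. sechellia 25% and D. melanogaster 9.59%, and the lowest F1 library, at 18.7%, stood over the higher mixed library, at 15.5%.

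Positions followed the order of the allele shares. At 40% or less of F1 reads on the D. melanogaster sequence (7 sites), F1 had a median of 0.853 and the mixed parents had 1.04, with 0.708 from the F1 shares. Among diverged sites with 40 to 60% (69 sites), F1 had a median position of 0.525 and the mixed parents had 0.561, where the F1 shares gave 0.466. Of these sites 48 were near the mid-parent, 7 near D. melanogaster, 8 near D. sechellia and 6 outside on the D. sechellia side. At 60 to 90% (35 sites) the medians were 0.331 in F1 and 0.378 in the mixed parents, with 0.302 from the F1 shares. Above 90% (26 sites) they were 0.118 in F1 and 0.0445 in the mixed parents, with 0.00884 from the F1 shares. The shares of the mixed parents gave 0.0083 at these sites.

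Across all diverged sites each library was also given 1 slope, fitted through the origin to its distance from D. melanogaster against the gap of the parents, so that wide gaps weigh most. F1 slopes were 0.315, 0.340 and 0.313, and those of the mixed parents 0.379 and 0.335. The allele shares of the same libraries gave 0.310, 0.309 and 0.321 in F1 and 0.351 and 0.355 in the mixed parents. The slopes of the groups overlapped, with 0.323 ± 0.0148 in F1 (SD, n = 3) and 0.357 ± 0.0317 in the mixed parents (SD, n = 2; exact two-sided permutation p = 0.3). The slope minus that from the shares averaged 0.00948 in F1 and 0.00412 in the mixed parents (exact permutation p = 0.8), while the slope from the shares was lower in every F1 library (exact permutation p = 0.1, the smallest possible).

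**Figure D3:**
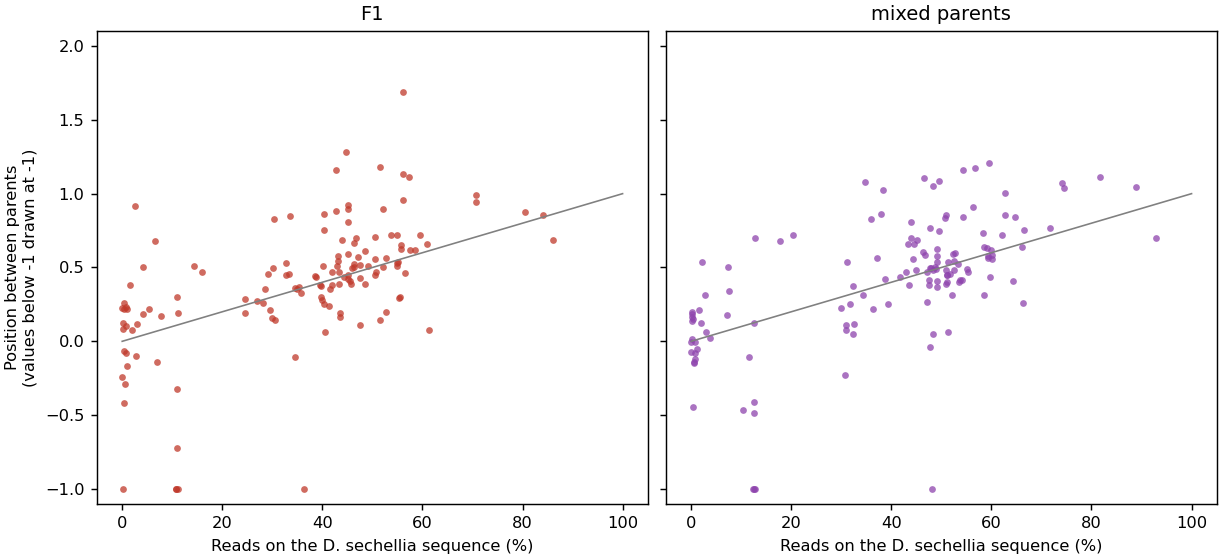
Position between the parents (vertical axis, 0 at D. melanogaster and 1 at D. sechellia, values below -1 drawn at -1) against the percentage of reads on the D. sechellia sequence (horizontal axis) for 137 diverged sites in F1 (left) and in the mixed parents (right). The grey line is the position that the share alone gives. Points scatter around it in both panels, and sites far below it stand mostly at few D. sechellia reads.

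The diverged sites were also split by other features, without a test, since sites of a cluster may share amplicons. The median F1 position was 0.448 at the 49 sites where D. sechellia was higher and 0.433 at the 88 where D. melanogaster was higher. On X the 39 sites had a median of 0.386 and 48.7% near the mid-parent, and on the other chromosomes the 98 sites had 0.445 and 57.1%. Where the cluster held 8 or more sites of the whole table, 39.0% of 41 diverged sites were near the mid-parent, against 68.6% of 35 where it held 1 or 2.

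F1 levels lay past those of the libraries of both parents at 15 sites, 13 above and 2 below, in the tests against each parent. The 13 lay in 4 clusters (1.81% of all sites tested were called above both) and the 2 in separate clusters (0.279% called below both). They were 5.34 to 38.4 percentage points past the nearer parental mean, and 12 of the 15 also differed from the weighted mid-parent. The count was 8 without D. melanogaster library 1. At 13 of the 15 sites more than 85% of F1 reads stood on the D. melanogaster sequence.

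These 15 sites were chosen on the same 4 parental libraries with which the mixed parents are compared, so the side on which the mixed parents stood at them is no independent result. By the same tests, 6 sites of the mixed parents were past both parents, all of them above and in 1 cluster (0.846% of all sites above and 0% below). Directly compared with the mixed parents, F1 had adjusted p-values of 0.416 to 0.976 at the 15 sites (quasi-binomial test), with an unadjusted p under 0.05 at 5 of them. By libraries alone, all 3 F1 libraries were above all 4 parental libraries at 41 members (4.61% of all sites) and below at 35 (4.05%). Both mixed libraries were above at 53 (6.1%) and below at 49 (5.76%), with fewer libraries to satisfy.

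**Figure D4:**
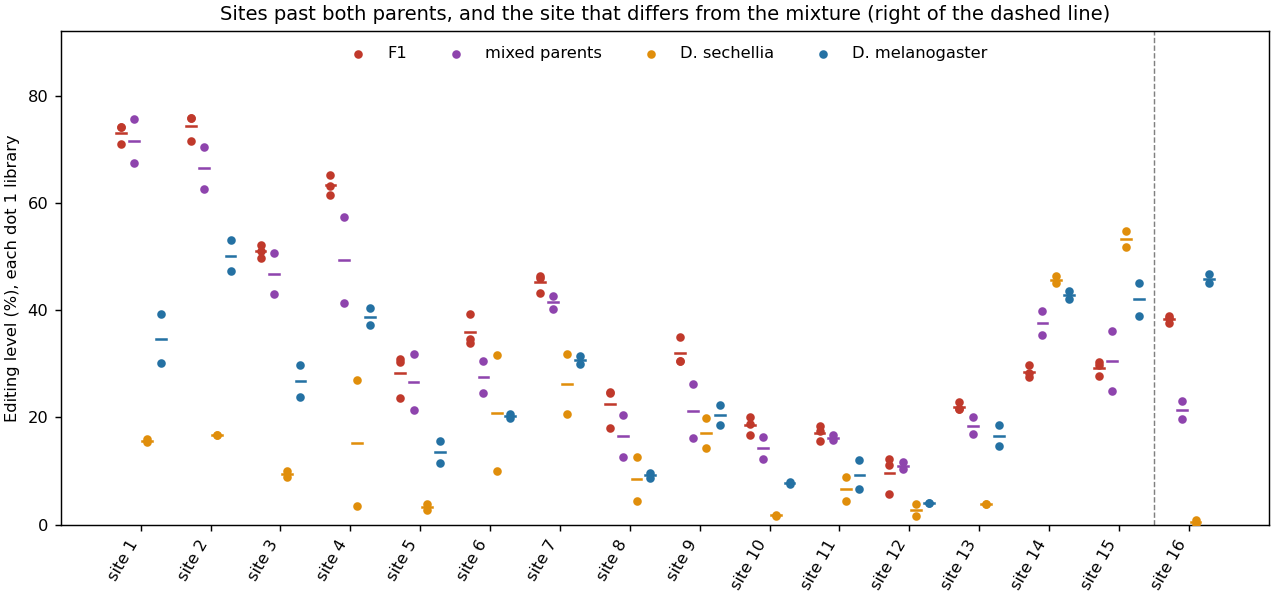
Editing level (vertical axis, percent) in each library (dots) with group means (short bars) at the 13 sites above both parents (sites 1 to 13), the 2 below (sites 14 and 15) and 3R 1062097 (site 16, right of the dashed line). Sites 1 to 4 are 2R 13262533, 2R 13262374, 2R 13262534 and 2L 8201387. Site 16 is the site where F1 and the mixed parents differed by the test.

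The largest excess lay in a group of 19 members on 2R, from 13262372 to 13262562, a span of 191 bases, which held 8 of the 13 sites. At 2R 13262533 the level was 74.2%, 74.1% and 71.1% in F1, 67.4% and 75.6% in the mixed parents, 15.3% and 15.9% in D. sechellia, and 39.3% and 30.1% in D. melanogaster. All F1 and mixed libraries were above all parental libraries, and F1 lay within the range of the mixture. The F1 mean of 73.1% ± 1.78 (SD, n = 3) was 40.5 points over the weighted mid-parent of 32.6% (adjusted p = 1.02e-05, quasi-binomial test), and the mixed mean of 71.5% ± 5.81 (SD, n = 2) was 39.1 points over its own (adjusted p = 9.55e-05). Reads of the D. melanogaster allele alone gave 80.8% in F1 and 79.1% in the mixed parents.

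Neighbouring sites repeated this order. At 2R 13262374 the level was 75.8%, 71.5% and 75.8% in F1, 62.6% and 70.3% in the mixed parents, 16.7% in both D. sechellia libraries, and 53.1% and 47.3% in D. melanogaster. F1 was highest, then the mixed parents, with no overlap between any groups. At 2R 13262534 F1 averaged 51.0% ± 1.23 (SD, n = 3), the mixed parents 46.8%, D. sechellia 9.51% and D. melanogaster 26.8%. At 2R 13262562 the means were 45.2% in F1, 41.4% in the mixed parents, 26.2% in D. sechellia and 30.7% in D. melanogaster. Means at 2R 13262386 were 28.3% in F1, 26.6% in the mixed parents, 3.30% in D. sechellia and 13.6% in D. melanogaster.

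The pattern ran through most of the group. Of its 19 members, 16 had an F1 mean above both parental means and 15 a mixed mean above both. The mean level over the 19 sites was 19.8% in F1, 18.4% in the mixed parents, 7.10% in D. sechellia and 11.1% in D. melanogaster. Reads of the D. melanogaster allele alone averaged 21.1% for F1 and 19.8% for the mixed parents. The D. melanogaster share of F1 reads was 88.8% to 96.2%. A member with another order was 2R 13262389, with a level of 7.98%, 8.33% and 10.1% in F1 and 2.74% and 9.58% in the mixed parents, against 43.2% and 36.6% in D. sechellia and 1.32% and 1.51% in D. melanogaster. F1 there stood between the parents, near D. melanogaster.

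**Figure D5:**
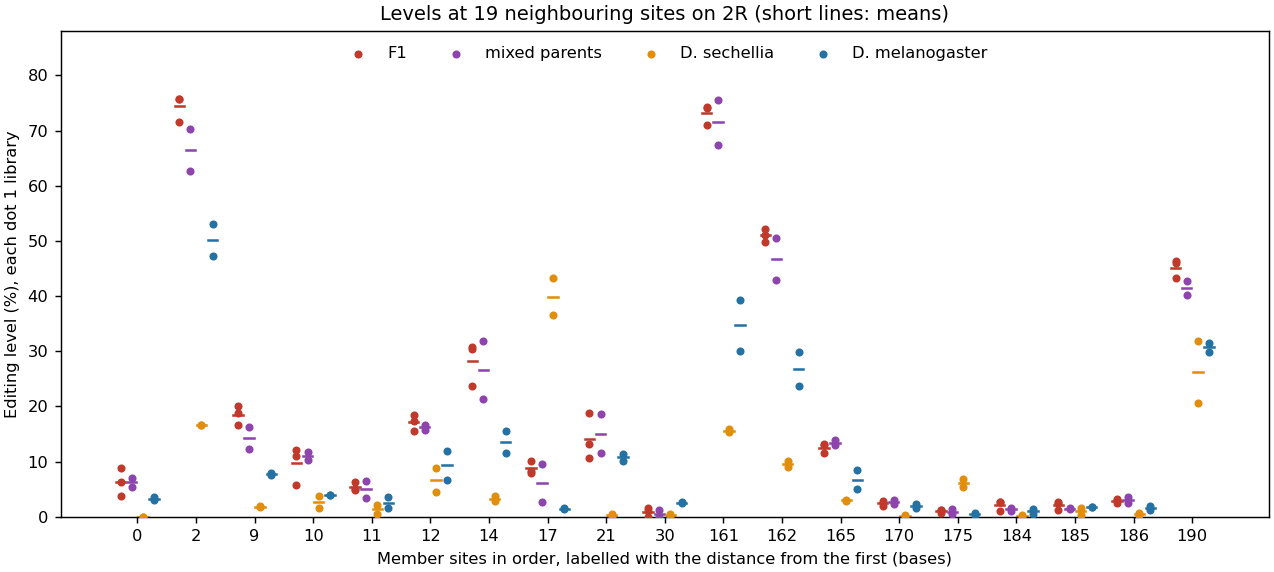
Editing level (vertical axis, percent) in each library (dots, with short lines for the means) at the 19 member sites of the 2R group, in order along the chromosome and labelled with the distance in bases from the first (horizontal axis, not to scale). At the 4 sites where F1 is above 40% all F1 and mixed libraries stand above all parental libraries, and at the site labelled 17 D. sechellia is highest.

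The other sites above both parents lay in 3 clusters. At 2L 8201387 the level was 65.2%, 61.5% and 63.1% in F1, 41.3% and 57.3% in the mixed parents, 3.48% and 27.0% in D. sechellia, and 40.4% and 37.1% in D. melanogaster. All F1 libraries were above all others, and the D. sechellia libraries were far apart. The adjusted p of F1 was 0.0214 against the weighted mid-parent, a call lost under 7 of 15 alternative settings, and 0.626 against the mixed parents (quasi-binomial test). Reads on the D. sechellia sequence numbered 1 of 538 in F1 and 1 of 300 in the mixed parents, and 8.57% of the reads in the D. sechellia libraries stood on the D. melanogaster sequence. Expression of the D. sechellia allele and the way reads were given to a species cannot be told apart here. At its neighbour 2L 8201337 F1 averaged 36.0% ± 2.95 (SD, n = 3), the mixed parents 27.5%, D. sechellia 20.9% and D. melanogaster 20.3%. The D. sechellia libraries were again far apart there, at 10.1% and 31.6%, and the lowest F1 library had 33.9%. F1 against D. sechellia only just passed the threshold (adjusted p = 0.0496, quasi-binomial test). Of the reads in the D. sechellia libraries, 20.9% stood on the D. melanogaster sequence.

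A balanced site among the 13 was 3L 9148318, where 49.5% of F1 reads were D. melanogaster. Its level was 18.0%, 24.8% and 24.6% in F1, 12.7% and 20.5% in the mixed parents, 4.46% and 12.6% in D. sechellia, and 9.62% and 8.79% in D. melanogaster. All F1 libraries were above all parental libraries and overlapped the mixed parents. Both F1 alleles stood above both parental means, with 20.1% for the D. melanogaster allele and 25.4% for that of D. sechellia. The F1 mean was 13.6 points over the weighted mid-parent (adjusted p = 0.0048, quasi-binomial test). The last cluster, at 2L 3503636 and 2L 3503650, had F1 means of 32.0% and 21.9%, mixed means of 21.2% and 18.4%, D. sechellia means of 17.1% and 3.9%, and D. melanogaster means of 20.4% and 16.6%.

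Below both parents were 3L 4198341 and 3R 24424516. At 3L 4198341 the level was 27.6%, 28.2% and 29.7% in F1, 35.4% and 39.9% in the mixed parents, 45.0% and 46.3% in D. sechellia, and 43.6% and 42.0% in D. melanogaster. F1 was lowest, then the mixed parents, without overlap, and the F1 mean fell by 14.6 points below the weighted mid-parent (adjusted p = 0.0045, quasi-binomial test). At 3R 24424516 the level was 30.3%, 29.8% and 27.7% in F1, 25% and 36.0% in the mixed parents, 54.7% and 51.8% in D. sechellia, and 38.9% and 45.1% in D. melanogaster. F1 lay inside the range of the mixed parents, and both were below all parental libraries. The remaining site below the weighted mid-parent, 3L 4590685, fell by 7.23 points, with F1 at 47.3%, the mixed parents at 53.7%, D. sechellia at 56.6% and D. melanogaster at 52.6%; its test against D. melanogaster gave an adjusted p of 0.0706. Its adjusted p against the weighted mid-parent was 0.0235, and 0.059 to 0.126 without either D. melanogaster library, D. sechellia library 1, or F1 library 1 or 2.

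Among the 20 sites that differed from the weighted mid-parent, the difference was 5.13 to 40.5 points in size. Of the 20, 6 lay in the 2R group. F1 stood past the parental means but not beyond both by the tests at 3L 4369162, where it averaged 50.4% ± 3.08 (SD, n = 3), the mixed parents 49.4%, D. sechellia 47.3% ± 8.81 (SD, n = 2) and D. melanogaster 27.8%. The D. melanogaster allele there had 50.7% in F1 and 50.5% in the mixed parents, both above the D. melanogaster libraries. At 2R 20798337 F1 averaged 41.4% ± 7.34 (SD, n = 3), the mixed parents 33.2%, D. sechellia 30.7% ± 9.28 (SD, n = 2) and D. melanogaster 15.1%, and the F1 alleles had 37.7% (D. melanogaster) and 43.5% (D. sechellia). Its adjusted p against the weighted mid-parent was 0.018, and 0.0653 to 0.111 without D. melanogaster library 2, D. sechellia library 1, or F1 library 1 or 3.

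Only 3 of the 20 had F1 means within the parental range, and 2 of these were neighbours on 3R. At 3R 1062097 the level was 37.6%, 39.0% and 38.4% in F1, 19.8% and 23.1% in the mixed parents, 0.825% and 0.186% in D. sechellia, and 46.7% and 45.0% in D. melanogaster. No group overlapped another, and F1 lay near D. melanogaster at position 0.166 while the mixed parents lay at 0.539. The D. melanogaster sequence held 56.4% of F1 reads, and its allele had levels of 67.3% in F1 and 43.8% in the mixed parents, beside 45.9% ± 1.20 in D. melanogaster (SD, n = 2). The D. sechellia allele had 0.937% in F1 and 0.161% in the mixed parents. F1 exceeded the weighted mid-parent of 26.1% by 12.2 points (adjusted p = 0.000157, quasi-binomial test).

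The neighbour 3R 1062100, 3 bases away, had F1 at 22.6% ± 2.48 (SD, n = 3), the mixed parents at 15.6%, D. sechellia at 0.772% and D. melanogaster at 27.8%, with F1 at 39.1% and the mixed parents at 31.6% for the D. melanogaster allele. The remaining site was 2R 4771250, where F1 had 21.0%, 21.7% and 25.1%, the mixed parents 15.4% and 16.8%, D. sechellia 6.74% and 5.99%, and D. melanogaster 26.0% and 24.7%. F1 overlapped D. melanogaster and lay above the mixed parents, and its D. melanogaster allele had 42.4% in F1 and 29.0% in the mixed parents.

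Set directly against the mixed parents, F1 differed at 1 of 698 members, where 0.136% of all sites tested were called. This was 3R 1062097, where the F1 mean was 16.9 points higher (adjusted p = 0.000162, quasi-binomial test). At an unadjusted p under 0.05 stood 52 members, and without mixed library 2 the test called 2. Against their own weighted mid-parent the mixed parents differed at 3 of 723 members, all higher and all in the 2R group (0.394% of all sites), namely 2R 13262374, 2R 13262533 and 2R 13262534, with 64 members at an unadjusted p under 0.05. The count of 3 was 9 without D. sechellia library 1, 5 without D. sechellia library 2, and 1 without D. melanogaster library 2 or without mixed library 2. Against the plain mid-parent they differed at 46 members, where 8.41% of all sites were called. The F1 and mixed-parent comparisons share the parental libraries.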

How the data were processed

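Heads of female flies were profiled by mmPCR-seq. Per the file headers, the authors deposited a table for every library that holds A and G read counts, separately for each species' sequence, beside an editing percent. The deposited counts are raw whole numbers. The deposited percent differs from the share of G reads by at most 0.05 and was replaced by levels taken from the counts. Per the submitters' processing notes, BWA was the aligner and dm3 the build. Not given in the sources used here are the version of BWA, the rule by which reads were given to a species and the choice of sites. No genome or annotation was used here, so sites carry positions and no gene names.

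Replicates were taken from the titles. The labels do not say that they came from separate flies, so p-values measure the spread between libraries, which may be technical. No replicate pair was identical, and their coverage differed by more than sampling noise (chi-square per degree of freedom 1.96 to 10.2). F1 replicates and parental replicates share numbers 1 and 2, which pairs nothing by the labels, and the deviations of same-numbered libraries had correlations of -0.458, 0.0753 and -0.0143.

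Each site with at least 50 reads per library and a mean level of at least 1% was tested with a quasi-binomial model on G and A reads in R 4.3.3. Dispersions from all 5 groups, the Adar-mutant hybrids among them, were squeezed on a coverage trend with limma 3.58.1 and set to at least 1. F1 was tested against each parent, against the mixed parents, and, by a deviance F test with the fit constrained to the mid-parent, against the plain and weighted mid-parent. The weight, the D. melanogaster share of reads, was taken as known. Benjamini-Hochberg adjustment ran over all sites of the table that were tested, with a threshold of 0.05. For mean levels and slopes, an exact two-sided permutation test over libraries was run. The tests were tried on simulated counts. The members, classes and borders were chosen with earlier results of these data known.

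Named sites are the 10 largest rises and falls past the threshold against the weighted mid-parent and, in each position class, the 6 with the widest parental gap (outside the range, the 6 farthest out), each with at most 2 per cluster, and the 10 farthest past both parents each way. The sites 2L 3503650, 2R 4771250, 3R 1062100 were chosen after their values were seen. A list of known editing targets could not be counted without gene names. Alternatives were other coverage and level minimums, another dispersion, limma on percent levels with and without a replicate block, a minimum difference, other allele weights and parental levels, other class borders and gaps, 1 site per cluster and leaving out each library.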

Additional observations from a re-analysis of the deposited data

Results flagged for a closer look

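F1 and mixed parents differed at 3R 1062097 by the test of the difference itself, where the F1 mean was 16.9 percentage points higher. In the parental libraries, reads on the other species' sequence, which no level uses, made up 3.76% of reads in D. sechellia library 1, 1.29% in D. sechellia library 2, 2.1% in D. melanogaster library 1 and 2.08% in D. melanogaster library 2. They were unevenly spread over sites: 51 members had more than 10% of D. sechellia reads on the D. melanogaster sequence, with a highest value of 45.5% and a median of 0.233%, and 3 members had the reverse. Their part in the F1 levels was not tested.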

How the results depend on the processing

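With limma on percent levels, a replicate block on the shared numbers (which the labels do not make a pairing) gave 38 sites against the plain mid-parent, 8 against the weighted one, 1 for the mixed parents against theirs and 0 for F1 against the mixed parents, beside 69, 20, 3 and 1; limma without the block gave 67 and 14 for the first pair. Restricting to sites with 40 to 60% of F1 reads on the D. melanogaster sequence, an alternative chosen after seeing the data, left fewer sites. There F1 differed at 14 sites from the plain and at 8 from the weighted mid-parent, at 73 from D. sechellia and at 72 from D. melanogaster. D. sechellia differed from D. melanogaster at 138, the mixed parents from their weighted mid-parent at 0, and F1 was past both parents at 1. Of diverged sites, 69.6% were then near the mid-parent and 8.70% outside. The plain mean of the 2 F1 allele levels, tested with limma, gave 3 of 478 sites off the plain mid-parent. It asked for at least 50 reads on each allele in every F1 library, so 3 and 69 come from unlike tests and sites. Allele levels of the mixed parents as parental levels, with at least 50 reads on each allele in every mixed library, gave 1 of 480 against the weighted mid-parent. A single weight for all sites gave 64. The cause was not tested. A level minimum of 5% gave 124 sites against D. sechellia among 424, a coverage minimum of 100 reads gave 5 for the mixed parents, and dispersion from the compared groups gave 2 for F1 against the mixed parents. Past all parental libraries were 76 sites in F1 and 102 in the mixed parents, and 6 by the tests with the mixed parents in place of F1. Narrower borders, at equal divisions of the range between the parents into 3, put 40.9% near the mid-parent, and the median position per library was 0.408 in F1 where the slope was 0.323. Leaving out 1 library gave 226 to 246 sites at which D. sechellia differed from D. melanogaster, beside 292. F1 then differed from D. melanogaster at 66 to 112 sites and from D. sechellia at 148 to 175. It differed from the plain mid-parent at 51 to 72, from the weighted one at 11 to 26 and from the mixed parents at 1 to 2. The mixed parents differed from their weighted mid-parent at 1 to 9 (9 without D. sechellia library 1, 5 without D. sechellia library 2, 1 without D. melanogaster library 2 or mixed library 2). F1 was past both parents at 8 to 17 sites, and of diverged sites 47.1% to 60.3% were near the mid-parent and 12.8% to 20.4% outside. F1 slopes were 0.310 to 0.328 (leaving out F1 libraries was added here after seeing the data). Mean differences were -0.696 to -0.173 points from D. melanogaster and 0.213 to 1.44 from D. sechellia. Of 17 named sites called against the weighted mid-parent, 5 kept the call under every setting that could be run for them (2R 13262374, 2R 13262533, 2R 13262534, 3L 4198341 and 3R 1062097) and 12 lost it under at least 1, with no change of sign among these 17. Of the 5, only 3R 1062097 had the reads for the setting with allele levels of the mixed parents (16 settings run, against 15 at the others). That setting left 1 call of 480, so its effect on the others is not known. Among F1 against D. melanogaster calls, 58 were higher and 68 lower; this balance turned to 49 and 39 without F1 library 2, 49 and 48 without F1 library 3, 41 and 39 without D. melanogaster library 2, and 37 and 35 at sites with 40 to 60% of F1 reads on the D. melanogaster sequence. Named sites that were not called against the weighted mid-parent did change sign. With a single weight for all sites, 3R 16846284 gave 15.6 points (adjusted p = 0.00127) beside -5.69, X 1272317 gave 11.4 (adjusted p = 0.0028) beside -3.41, and, short of the threshold, 2R 13262389 gave -5.87, X 11598221 gave 5.94, X 3847311 gave 5.71, X 1272312 gave 3.46 and 2R 17508581 gave 1.68. With allele levels of the mixed parents, 3L 21327037 gave 2.80, X 3847311 gave 4.09, 2R 17508581 gave 0.984, 2L 6002057 gave 1.71, 2L 6002117 gave 1.39 and 3R 482227 gave 3.69, none past the threshold. X 6001644 gave 0.627 with limma and the replicate block, and leaving out 1 library gave -2.73 to 1.96 there, -2.67 to 2.04 at 3L 21327037 and -2.75 to 0.442 at X 3847311, beside -0.192, -0.316 and -1.58.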
